A study of Mus musculus with 1279 samples.

Results

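Cluster 8 was the pericyte cluster of a single-cell transcriptome series of the adult mouse heart. Its members were the cells whose deposited label gave cluster 8, which took 15.3% of the 1279 cells (Wilson 95% interval 13.5% to 17.4%) and left 1083 cells in clusters 1 to 7. The label came from the authors' own clustering of these same cells, so genes that set the cluster apart partly define it. Whole cells had been sorted into wells and sequenced over the length of the transcripts (Smart-seq2), and reads were counted per gene. All mice were adult males, 10 to 20 weeks of age, backcrossed to C57BL/6J. The 4 strains differed in how cells were caught: C57BL6 cells by antibodies to PDGFRα or PDGFRβ, and cells of PdgfrbGFP, Cspg4dsRED and Acta2GFP mice by a fluorescent transgene driven from the promoter of the named gene. CD31-positive (endothelial) cells were kept out of every sort, and elastase was added when Acta2GFP hearts were dissociated. No label named an animal, so the cells of 1 cluster in 1 strain were summed and each sum was taken as 1 sample. Strain, sort and plate cannot be told apart in this design, and the p-values measure only the spread between such sums.

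Pericytes are mural cells that lie within the basement membrane of capillaries and share it with the endothelium. They depend on PDGF-B from the endothelium acting on their receptor PDGFRβ, and smooth muscle cells take their place along larger vessels. In the heart they are known for an ATP-sensitive potassium channel, made of the pore subunit Kir6.1 (Kcnj8) and the sulfonylurea receptor SUR2 (Abcc9), which opens when cellular ATP falls.

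Cluster 8 held 33 cells from C57BL6, 29 from Cspg4dsRED and 15 from Acta2GFP, and its other cells (60.7%) came from PdgfrbGFP. In the order C57BL6, PdgfrbGFP, Cspg4dsRED, Acta2GFP, it made up 5.68% (4.07% to 7.87%), 32.7% (28.1% to 37.7%), 17.8% (12.7% to 24.4%) and 8.77% (5.39% to 13.97%) of the cells of the strain, shares that the sorts can set. The other clusters used here were cluster 7 (9.23% of all cells) and cluster 6 (39 cells), both smooth muscle marker clusters, and the fibroblast clusters 1 to 5 as 1 group (926 cells). Cluster 8 cells had 46268 to 1019264 counts on genes (median 167874) and 1687 to 8164 genes with a count (median 3114.5). The sums over cluster 8 cells came to 7376211, 18542836, 6666928 and 6695411 counts in that order. Levels below are counts scaled to 1000000 counts on genes (CPM), spike-ins left out.

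The 2 genes of the channel lie next to each other on chromosome 6, and the 250 bases upstream of each start are shown because both are markers of the cluster. The sequences are from RefSeq (GRCm38.p6, minus strand, chr6:142571615-142571864 for Kcnj8 and chr6:142702275-142702524 for Abcc9). Capitals mark TGGGAA, the core of the DNA site of RBPJ, the partner of Notch receptors, searched on both strands (TTCCCA on the other).
Kcnj8: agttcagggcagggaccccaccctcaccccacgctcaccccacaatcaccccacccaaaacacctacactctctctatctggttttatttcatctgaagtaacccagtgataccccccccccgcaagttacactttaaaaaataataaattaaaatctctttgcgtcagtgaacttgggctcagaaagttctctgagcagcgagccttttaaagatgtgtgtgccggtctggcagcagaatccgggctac
Abcc9: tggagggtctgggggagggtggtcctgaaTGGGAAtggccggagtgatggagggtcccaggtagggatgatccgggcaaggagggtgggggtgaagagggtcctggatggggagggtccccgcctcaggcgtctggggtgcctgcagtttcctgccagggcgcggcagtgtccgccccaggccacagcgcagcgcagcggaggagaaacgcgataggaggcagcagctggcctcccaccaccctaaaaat
The Kcnj8 window held 0 copies and the Abcc9 window 1 copy of these letters, which 7094 of the 32851 upstream windows of this length held (21.6%). Abcc9 shares exon bases with the antisense gene 5330439B14Rik, and the libraries did not mark strand, so reads in that stretch cannot be assigned.

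Of the 6 pericyte markers, 5 were at high levels in cluster 8 of every strain and 1, Cp, was not particular to mural cells. Kcnj8 stood at 5132, 6605, 4063 and 665 CPM in C57BL6, PdgfrbGFP, Cspg4dsRED and Acta2GFP, the order kept below. Abcc9 stood at 2401, 2354, 4228 and 713 CPM. Rgs5, a regulator of G protein signalling widely used as a pericyte marker, stood at 7978, 9556, 7543 and 3215 CPM. These 3 genes were high in 3 strains at like levels and lowest in Acta2GFP. Steap4, a metalloreductase, stood at 3151, 4059, 2971 and 1338 CPM. Colec11, a soluble collectin of the lectin complement pathway, was the steadiest of the set at 1775, 2378, 1929 and 1621 CPM, with no strain apart. Cp, the copper-carrying ferroxidase ceruloplasmin, stood at 446, 436, 246.7 and 513 CPM against 401 to 503 CPM in fibroblasts and 1.12 to 7.86 CPM in cluster 7. Cluster 8 and fibroblasts thus carried Cp at overlapping levels, and cluster 7 was far below both.

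**Figure D1:**
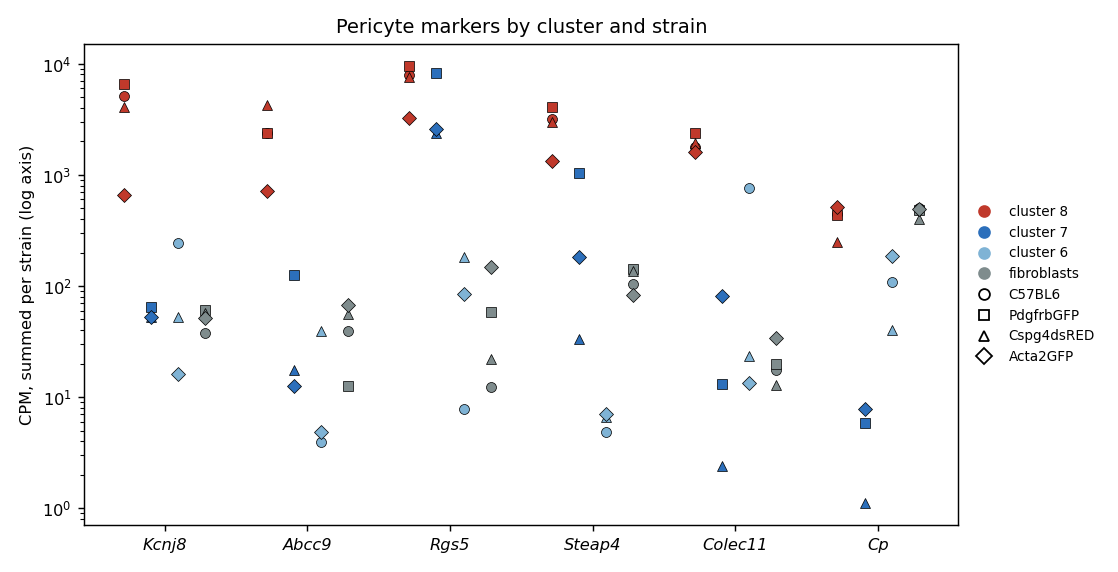
CPM of the 6 pericyte markers (log axis) in the sums of each strain (point shape) for cluster 8, cluster 7, cluster 6 and fibroblasts (colour); each point is 1 sum of at least 3 cells. Cluster 8 lies above the other groups for Kcnj8, Abcc9, Steap4 and Colec11 in each strain, reaches into cluster 7 for Rgs5 and into fibroblasts for Cp, and its Acta2GFP sum (diamond) is the lowest of the 4 for Kcnj8, Abcc9, Rgs5 and Steap4.

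The label was made from these same counts, so the single-cell levels of the markers describe the cluster and are no separate evidence for it. At least 4 of the 6 markers stood at 100 CPM or more in 92.9% of cluster 8 cells, against 2.54% of cluster 7 cells, 1 of 39 cluster 6 cells and 10 of 926 fibroblasts. Rgs5 reached that level in every cluster 8 cell, Kcnj8 in 95.4%, Abcc9 in 81.6%, Steap4 in 87.8%, Colec11 in 83.7% and Cp in 41.3% of them. In cluster 7 Rgs5 did so in 71.2% of cells, and in fibroblasts Cp did in 68.8%. Per kilobase of exon, so that genes can be compared with each other, Kcnj8 ranked 3 and Rgs5 5 among the protein-coding genes of cluster 8 outside the mitochondrial genome. Ahead of both stood Vtn (vitronectin, an adhesive glycoprotein), with 1815 CPM per kilobase, and Igfbp7, an insulin-like growth factor binding protein. Ndufa4l2, Cox4i2 and Higd1b, which belong to or resemble parts of the respiratory chain and its hypoxia response, ranked 4, 7 and 14, Colec11 ranked 9 and Steap4 18. Abcc9 and Cp came far behind, at 289.5 and 42.9 CPM per kilobase against 1615.5 for Kcnj8.

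Markers of other cell types were summed in the same way. The 7 endothelial markers summed to 4.88 to 118.1 CPM over the 4 strains, the 8 cardiac muscle markers to 251.5 to 419.8 CPM and the 5 immune markers to 0 to 38.2 CPM. The cardiac muscle sums were above the 29.5 to 161.9 CPM of fibroblasts in each strain, and overlapped with those of cluster 7 (282.6 to 759 CPM) and cluster 6 (3.92 to 1485 CPM). Of the immune markers 2 had no count in any cluster 8 cell. The 3 Schwann cell markers came to 0 to 5.70 CPM and the 3 markers of dividing cells to 0.299 to 1.05 CPM, while all 3 epicardial markers had no count. The 4 red blood cell markers came to 0.597 to 174.7 CPM, the highest in Cspg4dsRED. Cells with endothelial or immune signatures, and cells without Pdgfra and Pdgfrb, had been removed by the authors before deposit.

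The 15 Acta2GFP cells of cluster 8 stood apart from the rest, so each comparison below is also given without them. Their 6 pericyte markers summed to 8064 CPM against 20883 to 25389 CPM in the other strains. Their 4 smooth muscle markers (Acta2, Myh11, Tagln, Cnn1) summed to 4033 CPM against 201.1 to 1169.8 CPM, and their 5 fibroblast markers to 2645 against 513 to 1266 CPM. All 3 sums lay outside the range of the other strains, but none was among those flagged by Dixon's rule in the closing section. Acta2 itself, the gene whose promoter drove the sorted reporter, stood at 136.1, 494, 945 and 2340.4 CPM, and this level cannot be told apart from the gate. The Acta2GFP cells also held more genes with a count (median 6896) and more counts (median 350011) than the cluster as a whole, and a lower share of spike-in reads (median 1.48% against 2.97% to 4.77%). Acta2GFP fibroblasts summed to 655.3 CPM of the smooth muscle markers against 55.7 to 354.6 CPM in fibroblasts of the other strains, with a median of 6470 genes against 3674 to 5572 and 0.907% of spike-in reads against 1.276% to 1.96%. Cluster 7 cells of Acta2GFP had a median of 6201 genes against 3285 to 4094. Genes detected, spike-in share and smooth muscle markers thus moved with the strain in fibroblasts as well. Smooth muscle markers of Acta2GFP summed to 11789 CPM in cluster 7, against 10670 and 15717 CPM in the other strains. In cluster 6 they summed to 9946 against 11019 and 13384 CPM. Pericyte markers summed to 882 CPM in Acta2GFP fibroblasts, above the 684 to 780 CPM of the other strains.

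Individual genes separated these cells more sharply than the sums did. S1pr3, a receptor for sphingosine 1-phosphate, stood at 10.9 CPM against 1616 to 1698 CPM in the other strains. Art3, an ADP-ribosyltransferase relative, stood at 11.8 against 1177 to 2878 CPM. P2ry14, a receptor for UDP-glucose, stood at 0.149 against 368 to 1209 CPM. For each of the 3 the other strains held high levels and the Acta2GFP cells nearly none. Ednrb, the endothelin receptor type B, had no count in the 15 cells and 166.1 to 694 CPM elsewhere. In the other direction Eln, which encodes elastin, stood at 673 CPM against 4.05 to 5.15 CPM, and 9 of the 15 cells held 100 CPM or more where no other cluster 8 cell did. Nox4 (550 CPM), Chrdl1 (1124 CPM), Tmem119 (832 CPM), Loxl1 (602 CPM) and Col14a1 (667 CPM) were likewise high there. Most were not confined to cluster 8 in this strain. Acta2GFP fibroblasts held Loxl1 at 1250.2, Tmem119 at 328.1, Eln at 270.4, Col14a1 at 229.9, Nox4 at 175.8 and Chrdl1 at 61.4 CPM. Cluster 6 of Acta2GFP held Eln at 1120.6, Loxl1 at 299.6, Nox4 at 232.1 and Col14a1 at 199.2 CPM. It held Tmem119 at 6.48 and Chrdl1 at 1.62 CPM. These genes were picked for their distance from the other strains after the values were seen, and no test was made.

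**Figure D2:**
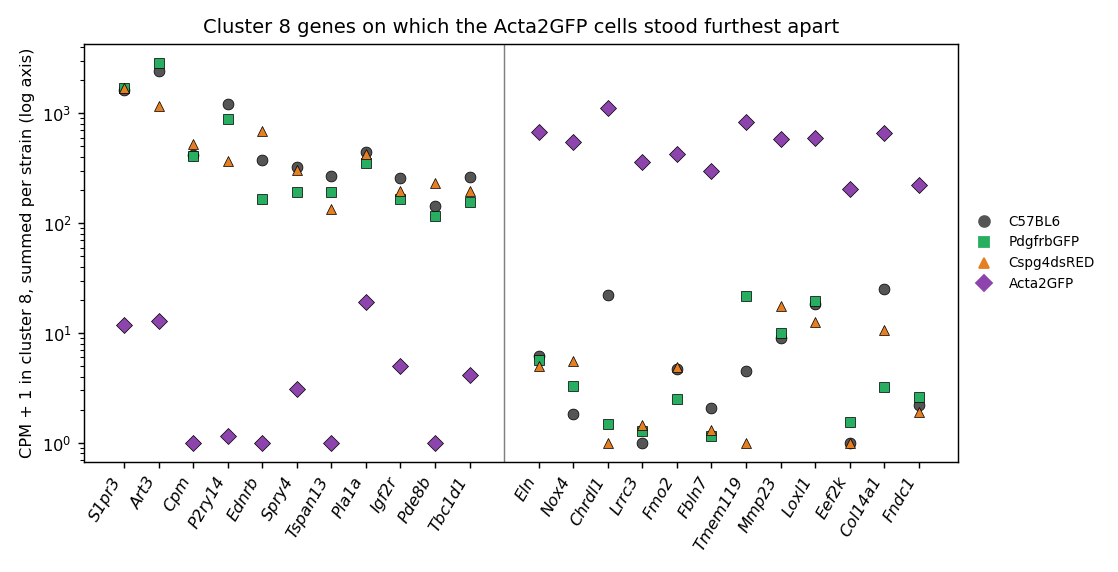
CPM + 1 (log axis) in cluster 8 of each strain for 11 of the 12 protein-coding genes lowest (left) and the 12 highest (right) in Acta2GFP relative to the nearest of the other 3 strains; each point is the sum over that strain's cluster 8 cells. The Acta2GFP sum (diamond) lies at 18.2 CPM or less for the left genes, among them S1pr3 (10.9 CPM), and at 203.4 CPM or more for the right ones.

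Markers were uneven among the 15 cells. Kcnj8 reached 100 CPM in 7 of them against all but 1 of the other cluster 8 cells, while Colec11 and Rgs5 did so in all 15. Smooth muscle markers outweighed pericyte markers in 6 cells of cluster 8 (3.06%), 4 from Acta2GFP and 2 from PdgfrbGFP, against 94.1% of cluster 7 cells and 39 of 39 cluster 6 cells. Fibroblast markers outweighed pericyte markers in 3 cells of cluster 8, all from Acta2GFP. The part of smooth muscle or fibroblast RNA in these cells' values was not tested, and the gate, the plate and the added elastase cannot be told apart from the strain.

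**Figure D3:**
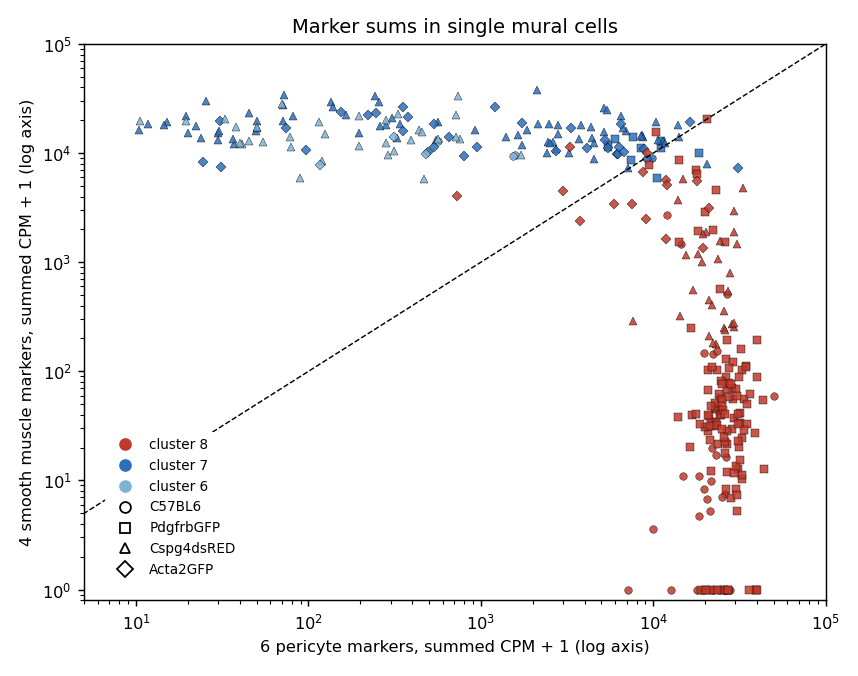
Each point is 1 cell of cluster 8, 7 or 6 (colour) from 1 of the 4 strains (shape), placed by its summed CPM + 1 of the 6 pericyte markers (x) and of the 4 smooth muscle markers (y), both on log axes; the dashed line marks equal sums. Cluster 8 lies below the line except for 6 cells, and 4 of these 6 are Acta2GFP cells (diamonds).

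Fibroblasts held counts of the pericyte genes too. On the C57BL6 plate that held the 33 cluster 8 cells, 91.1% of fibroblasts had a count of Rgs5, at 18 CPM, whereas on the C57BL6 plate with no cluster 8 cell 3.98% did, at 3.91 CPM. For Kcnj8 the shares were 81.5% and 7.97%, at 43.8 and 25.8 CPM, and for Higd1b 35.6% and 0%, where finding no cell allows up to 1.195% by counting alone. The share of fibroblasts with a count of these genes thus differed between plates of the same strain, at CPM far under those of cluster 8. Steap4 stood at 113.9 and 89.995 CPM on these plates and Cp at 505 and 494 CPM. The source of these low counts, free RNA or another, was not tested. Because such counts differed between plates, shares of cells are given here at 100 CPM and not at 1 count.

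Cluster 8 against cluster 7 asked how pericytes differed from the smooth muscle cluster, in the 3 strains with at least 3 cells on both sides. Of 11867 genes tested by edgeR's quasi-likelihood test on the sums, 10 were higher (0.0843%) and 13 lower (0.11%) in cluster 8 at an adjusted p under 0.05. With strain as a replicate block, 24 were higher and 58 lower. Without Acta2GFP 31 were higher and 93 lower, and all 23 genes of the first count were among them. Without Cspg4dsRED 13 genes passed in all, and without PdgfrbGFP, which held only 9 cluster 7 cells, none did (1514 at an unadjusted p under 0.05). Log2 fold changes are given ± SE, positive where cluster 8 was higher, and the median over all genes tested was 0.18.

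Among the markers, Cp (6.28 ± 0.99, adjusted p = 0.0302), Kcnj8 (5.94 ± 0.75, adjusted p = 0.0124) and Colec11 (5.92 ± 1.03, adjusted p = 0.0455) were higher in cluster 8. Cluster 7 held Kcnj8 at 65.3, 52.6 and 53.1 CPM and Colec11 at 13.2, 2.4 and 81.1 CPM in PdgfrbGFP, Cspg4dsRED and Acta2GFP, below every cluster 8 sum. Abcc9 missed the threshold (5.31 ± 1.01, adjusted p = 0.0681) and passed with the replicate block (adjusted p = 0.00324), at 126.1, 17.6 and 12.6 CPM in cluster 7. Steap4 (2.51) and Rgs5 (0.45) did not pass. Rgs5 stood at 8213, 2396 and 2565 CPM in cluster 7, overlapping cluster 8, so of the 6 markers it told the 2 mural clusters apart least. Without Acta2GFP, Abcc9 and Steap4 passed too and Rgs5 did not.

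Of the genes higher in cluster 8, Tspan15 and Ttyh2 had larger fold changes than the 3 markers. Tspan15, a tetraspanin that guides the protease ADAM10, stood at 793, 462, 653 and 45.1 CPM in the 4 strains of cluster 8 and at 0.0836 to 1.96 CPM in cluster 7 (8.38 ± 1.44, adjusted p = 0.0455). Ttyh2, a tweety family membrane protein, stood at 714, 316, 305 and 38.4 CPM and at 0.837 to 1.96 CPM (7.39 ± 1.30, adjusted p = 0.0455). Neither pair of groups overlapped, and the Acta2GFP sum was again the lowest of cluster 8. Lama2, the laminin α2 chain of the basement membrane, was present at 220.8 to 478 CPM against 6.19 to 8.6 CPM (5.68, adjusted p = 0.0212), though it shares 538 exon bases with an antisense gene. Col6a2, a chain of collagen VI, was present at 351 to 1445 against 10.3 to 30.5 CPM (5.43, adjusted p = 0.0212). Postn, the matricellular protein periostin, stood at 1768, 2114, 1951 and 2489 CPM in the 4 strains and 25.5 to 216.5 CPM in cluster 7 (4.60, adjusted p = 0.0407). Oaf (4.67) and Slc43a3 (4.58), a purine base transporter, completed the 10 genes.

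The 13 genes lower in cluster 8 included 1 contractile gene (Tpm1) and 1 calcium handling gene (Pln) of the lists. Sgca, a sarcoglycan of the muscle membrane, stood at 501, 234.3 and 311 CPM in cluster 7 and 0 to 2.09 CPM in cluster 8 (−8.51 ± 1.10, adjusted p = 0.0124). Entpd1 (CD39), an ectonucleotidase that breaks down extracellular ATP, stood at 874, 878 and 832 against 0 to 8.66 CPM (−7.77, adjusted p = 0.0124). Nrip2 stood at 1557, 885 and 1067 against 0.136 to 39.7 CPM (−5.89, adjusted p = 0.0124), with exon bases shared with 2 other genes. Every cluster 8 sum of these 3 genes lay far below every cluster 7 sum. Pln, the sarcoplasmic reticulum pump inhibitor phospholamban, stood at 1276, 1062 and 1086 against 12.7 to 98.2 CPM (−4.80, adjusted p = 0.0314). Tpm1, a tropomyosin, stood at 2568, 3084 and 2419 CPM in cluster 7 and at 503, 572, 526 and 622 CPM in the 4 strains of cluster 8 (−2.30, adjusted p = 0.0314), an even level. Ckb, brain-type creatine kinase (−2.61), Clu, the chaperone clusterin (−5.10), and Atf3, a stress-induced transcription factor (−4.11), were lower in cluster 8, as were Grip2, Net1, Prkag2 (which shares 535 exon bases with an antisense gene), Perp and Dstn (−7.80, −7.65, −7.34, −6.07 and −2.53).

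Contractile genes as a list lay on the cluster 7 side. Of 16 tested, 1 passed (Tpm1, lower in cluster 8), all 16 had a negative fold change, and their median was −2.22 against 0.18 over all genes. With the replicate block 10 were lower and 1 was positive, and without Acta2GFP 12 were lower with a median of −3.02. By edgeR none passed without PdgfrbGFP or without Cspg4dsRED (11 at an unadjusted p under 0.05 in either). Acta2 stood at 6478, 6792 and 5034 CPM in cluster 7 (−2.34, adjusted p = 0.126; 0.0195 with the block) and Myh11, the smooth muscle myosin heavy chain, at 1737, 4495 and 3504 CPM against 5.15, 36.3, 34.05 and 664 CPM in the 4 cluster 8 sums (−3.71, adjusted p = 0.221; 0.0133 with the block). For Myh11 the Acta2GFP sum was by far the highest of cluster 8. Cnn1 was at 2.94 CPM in cluster 7 of PdgfrbGFP and above 1000 CPM in the other 2 strains, so cluster 7 was itself uneven.

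Interstitial matrix genes lay on the cluster 8 side. All 20 tested had a positive fold change, with a median of 2.83, and 2 passed (Col6a2 and Postn). Fibroblast markers moved the same way: all 5 were positive (median 1.32), and they summed to 1266, 513 and 2645 CPM in cluster 8 of PdgfrbGFP, Cspg4dsRED and Acta2GFP against 646, 122.6 and 637 CPM in cluster 7. Their part in the matrix values was not tested. The block added Col6a1, Fn1, Col3a1 and Col1a1. Without Acta2GFP 18 of 20 were positive and 3 passed, and 3 passed without Cspg4dsRED and none without PdgfrbGFP (9 at an unadjusted p under 0.05). Fibronectin (Fn1) stood at 322, 342, 647 and 369.9 CPM in cluster 8 and 5.89, 45.6 and 27.3 CPM in cluster 7 (4.08, adjusted p = 0.0815; 0.0232 with the block). Eln was positive (2.98) with Acta2GFP and negative (−2.83) without it, and Loxl1 likewise (2.33 and −1.58), with no call in either fit.

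**Figure D4:**
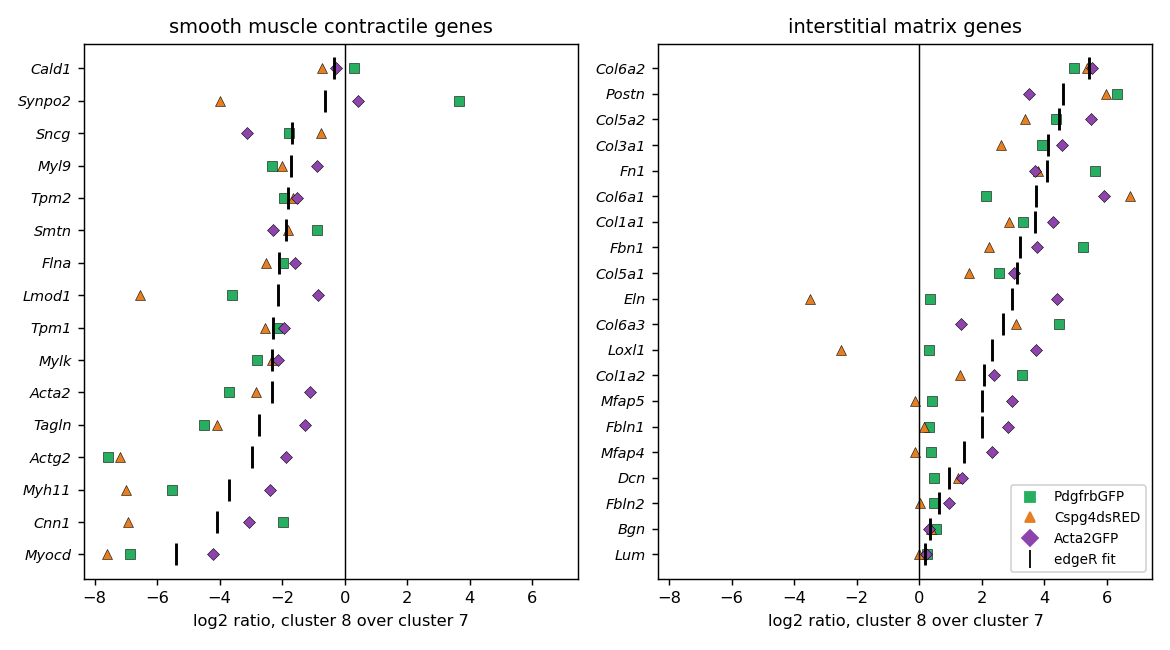
Log2 ratio of cluster 8 over cluster 7 for 16 contractile genes (left) and 20 interstitial matrix genes (right); points are ratios of CPM + 1 within a strain (colour and shape), black ticks the edgeR estimate, and the vertical line marks no difference. The ticks are all negative on the left and all positive on the right, while within-strain ratios of Cald1 and Synpo2 (left) and of Eln and Loxl1 (right) fall on both sides.

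Other lists differed little in calls between the 2 mural clusters. Immediate early genes, which respond within minutes to stimuli that include tissue dissociation, had 17 tested, all negative, with a median of −2.0 and 1 call (Atf3). With the block Fos was lower as well, and without Acta2GFP 8 were lower and 1 was positive. Without PdgfrbGFP or Cspg4dsRED none passed by edgeR (7 and 4 at an unadjusted p under 0.05). Fos stood at 1675, 681, 658 and 1382 CPM in the 4 sums of cluster 8 and 3843, 4024 and 2468 CPM in cluster 7. Of 19 genes of the mural list only Postn passed, and the receptor Pdgfrb (1.41, adjusted p = 0.384), Notch3 (0.73) and Mcam (−0.62) did not. Vtn (3.49, adjusted p = 0.177) and Des, the muscle intermediate filament desmin (−1.93, adjusted p = 0.164), did not pass either, but did with the replicate block (adjusted p = 0.0166 and 0.0403) and without Acta2GFP. By edgeR no gene passed among 15 vasoactive receptor genes, 9 cyclic nucleotide genes, 11 integrin genes, 21 transcription factor genes and 8 solute carrier genes, where 2, 0, 2, 3 and 2 genes had an unadjusted p under 0.05. Without Acta2GFP 1 vasoactive receptor gene passed, Ednrb (6.05, adjusted p = 0.00195), and none of the other 4 lists had a call (1, 0, 1 and 2 genes at an unadjusted p under 0.05).

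Cluster 8 against cluster 6 used C57BL6, Cspg4dsRED and Acta2GFP, but the cluster 6 sums of C57BL6 and Acta2GFP rested on 3 cells each. Of 10812 genes tested, 15 were higher (0.139%) and 2 lower (0.0185%) in cluster 8. With DESeq2 size factors in edgeR 21 were higher and 15 lower, and with the replicate block 79 and 76. Without Acta2GFP 0.639% of genes were higher and 0.993% lower, including all 17, without C57BL6 47 genes passed and without Cspg4dsRED 1 did. The median over all genes was 0.35.

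Of the 6 pericyte markers 4 passed, behind other genes in fold change. Steap4 (8.62 ± 0.63, adjusted p = 1.95e-05), Abcc9 (7.18 ± 1.03, adjusted p = 0.0103), Rgs5 (6.03 ± 0.88, adjusted p = 0.0103) and Kcnj8 (5.11 ± 0.91, adjusted p = 0.0407) were higher in cluster 8. Rgs5, which had overlapped with cluster 7, stood at only 7.84, 180.7 and 84.2 CPM in cluster 6 of C57BL6, Cspg4dsRED and Acta2GFP. Colec11 (2.95, adjusted p = 0.491) did not pass here but did with the block, without Acta2GFP and without C57BL6 (6.67, adjusted p = 0.00285). It stood at 759, 23.5 and 13.5 CPM in cluster 6, highest in the 3 C57BL6 cells. Cp did not pass (1.86).

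Several genes were close to absent from cluster 6. Chn1, which encodes the Rac regulator chimerin, stood at 481, 483, 439.9 and 81.5 CPM in the 4 strains of cluster 8 and at 0 to 0.54 CPM in cluster 6 (10.60 ± 1.59, adjusted p = 0.0121). Il34, a ligand of the CSF1 receptor, stood at 365, 151.97, 423 and 516 against 0 to 1.08 CPM (9.56 ± 1.25, adjusted p = 0.0063). Sept4, a septin, stood at 1618, 1940.2, 1124 and 1021 against 1.96 to 6.11 CPM (8.16 ± 0.79, adjusted p = 0.00031). No sums overlapped for these 3 genes, of which Chn1 shares 533 exon bases with an antisense gene. Ttyh2, Plxdc1 and Sema6d were also among the largest differences (9.83, 8.83 and 8.42). Casq2, the calcium store protein calsequestrin 2, was near 0 in cluster 6 (0 to 7.02 CPM) (7.83 ± 1.35, adjusted p = 0.0349). It stood at 1026, 949.7, 1242 and 92.9 CPM in cluster 8, lowest in Acta2GFP, and at 671 to 1357 CPM in cluster 7. Notch3 stood at 588 to 1041 against 50.9 to 85.8 CPM (3.64 ± 0.66, adjusted p = 0.0444). Lower in cluster 8 were Clu (−6.88 ± 0.89, adjusted p = 0.0063) and Fgl2, a fibrinogen-like protein (−6.00 ± 1.04, adjusted p = 0.0357).

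List counts in this comparison moved with the strains included. By edgeR none of 16 contractile genes passed (13 at an unadjusted p under 0.05, median −1.88), against 10 lower without Acta2GFP and 11 with the block. None of 20 interstitial matrix genes passed (5 at an unadjusted p under 0.05, median −1.42, 4 positive), against 10 lower without Acta2GFP, Eln first, and 7 with the block. Fibroblast markers moved with these genes: in the cluster 6 cells of C57BL6 they summed to 9822 CPM, within the 9358 to 12357 CPM of fibroblasts, against 1797 and 2167 CPM in Cspg4dsRED and Acta2GFP, and the matrix genes to 29813 against 18009 and 12642 CPM. Without C57BL6 the matrix median was −0.46 with 7 positive and no gene passed by edgeR (4 at an unadjusted p under 0.05). The part of fibroblast RNA in these values was not tested. Mural genes had 1 of 18 higher, 10 without Acta2GFP, 4 without C57BL6 and 10 with the block. Without Cspg4dsRED no gene of the contractile, matrix or mural lists passed by edgeR (4, 2 and 7 at an unadjusted p under 0.05), and without C57BL6 1 contractile gene did. The receptors S1pr3 (6.93, adjusted p = 0.0759) and P2ry14 (6.89, adjusted p = 0.335) did not pass in the first fit. Both passed without Acta2GFP and with the block, and neither did without C57BL6.

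Cluster 8 against the fibroblast clusters had sums in all 4 strains and the most calls. Of 13692 genes tested, 325 were higher (2.37%) and 693 lower (5.06%) in cluster 8. With the replicate block 1.67% were higher and 2.28% lower. Without Acta2GFP 371 were higher and 793 lower, and 747 of the 1018 genes were shared. Without C57BL6 1.42% of genes passed, without PdgfrbGFP 1.64% and without Cspg4dsRED 2.56%, against 7.43% with all strains. The median over all genes was 0.10. Where list counts without C57BL6, without PdgfrbGFP and without Cspg4dsRED are given below, they are in this order. They are not given for every list.

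Of 18 genes of the mural list 15 were higher and none lower, with a median of 4.24. The list was not even over the mural clusters. Vtn reached 100 CPM in 97.4% of cluster 8 and 12.7% of cluster 7 cells, and Art3 in 81.1% and 14.4%. Mcam did so in 53.6% and 83.9% of them. Vtn stood at 4276, 5080.2, 3031 and 2349 CPM in cluster 8 and 14.003, 23.6, 2.27 and 20.7 CPM in fibroblasts (8.02 ± 0.76, adjusted p = 0.000457). Higd1b stood at 1187, 1006, 886 and 329.6 against 1.23, 3.35, 0.663 and 5.38 CPM (8.41 ± 0.80, adjusted p = 0.000457). Pdgfrb stood at 1988, 3281, 2401 and 1487 against 179.5, 354, 213.5 and 294 CPM (3.25 ± 0.36, adjusted p = 0.000767). Fibroblasts thus held some Pdgfrb while cluster 8 held several times more in each strain. C57BL6 cells were partly caught by this protein and PdgfrbGFP cells by a reporter driven from its promoter. The levels in these strains cannot be told apart from the gate. Rgs4, Mcam, Notch3, Cox4i2, Gucy1b1, Des, Gucy1a1, Ndufa4l2, Heyl and Postn were higher with fold changes of 6.47, 6.02, 5.37, 4.54, 4.24, 3.77, 3.49, 3.26, 1.73 and 1.64. P2ry14 (8.52) and Art3 (5.41) lost the call with the replicate block (adjusted p = 0.1253 and 0.146). Without Acta2GFP 17 of 19 mural genes were higher, both of these included, and without the other strains in turn 10, 11 and 11 were. Cspg4, whose promoter drove the dsRED reporter, stood at 589, 641, 1161 and 48.5 against 2.01, 4.13, 114.5 and 19.4 CPM and did not pass (4.24 ± 1.27, adjusted p = 0.0788).

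Pericyte markers passed in 5 of 6 cases, with fold changes of 6.99 for Rgs5, 6.64 for Colec11, 6.41 for Kcnj8, 5.90 for Abcc9 and 4.73 for Steap4. Cp did not pass (−0.07 ± 0.31, adjusted p = 0.951). Among the largest differences over all genes, Gper1, a G protein-coupled estrogen receptor, stood at even levels of 297, 221.1, 244.9 and 229.9 CPM against 0.19 to 1.6 CPM (8.39 ± 0.68, adjusted p = 0.00032). Casq2, Higd1b, Tcf15, Iqsec3, Ephx3 and Tspan15 were also among the leading genes (8.45, 8.41, 8.12, 8.09, 8.08 and 8.06). Of these Tcf15 lost the call with the replicate block (adjusted p = 0.0512). Fibroblasts in turn led in Larp6, an RNA-binding protein of type I collagen transcripts (57.98 to 90.5 against 0.15 to 0.448 CPM, −7.57 ± 0.76), Enpp3 (−6.99), P2ry1 (−6.79, with 992 exon bases shared with another gene), Enc1 (−6.76), Thsd7a (−6.74), Cd83 (−6.68) and 2 predicted genes. Pdgfra, the fibroblast receptor, stood at 491, 382, 536 and 508 CPM in fibroblasts and 7.59, 4.26, 0.9 and 30.02 CPM in cluster 8 (−5.32 ± 0.92, adjusted p = 0.0077).

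Contractile genes lay on the cluster 8 side against fibroblasts. All 16 had a positive fold change (median 2.66) and 7 passed, among them the myosin light chain kinase Mylk (4.92), Tpm2 (3.04), Myl9 (2.69) and Cald1. The largest fold change of the list, also a call, was that of Sncg (6.15), which encodes a synuclein and not a contractile protein. Without Acta2GFP 13 of 15 were positive and 6 passed, and 5 passed without any of the other strains in turn. Myl9 stood at 612, 791, 1154 and 1829 CPM in cluster 8, 134.8 to 281.3 CPM in fibroblasts and 3389 to 4640.3 CPM in cluster 7. Smtn and Tpm1 lost the call with the replicate block (adjusted p = 0.0588 and 0.0573), and Acta2 (2.30, adjusted p = 0.181) and Tagln gained it (adjusted p = 0.00616 and 0.0306). Of 12 calcium handling genes 3 were higher: Casq2, Kcnmb1, the β1 subunit of the large-conductance potassium channel (7.59), and the calcium channel gene Cacna1c, which lost its call with the block (adjusted p = 0.0912). Casq2 is also known from cardiac muscle, and all 8 cardiac muscle markers had a positive fold change against fibroblasts (median 2.00), though none passed by edgeR (5 at an unadjusted p under 0.05). Their part in these values was not tested. Of 6 channel genes Kcnj8, Ano1, a calcium-activated chloride channel (5.90), and Abcc9 were higher.

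Receptors and second messenger genes for vascular tone followed. Of 16 vasoactive receptor genes 5 were higher and 2 lower. Ednra, the endothelin receptor type A, stood at 878, 523, 1407 and 1504 CPM against 18.998, 25.7, 48.8 and 149.2 CPM (4.30 ± 0.68, adjusted p = 0.00487). Ednrb (8.72), Adra2b, an α2 adrenoceptor (8.29), P2ry14 and Agtr1a, the type 1 angiotensin receptor (2.83), were also higher. Ednrb was absent from the Acta2GFP cells as above and lost the call with the replicate block (adjusted p = 0.0659). S1pr2 (−5.33) and the thrombin receptor F2r (−1.34) were lower. Both subunits of soluble guanylate cyclase, the receptor of nitric oxide, were higher, with Gucy1a1 at 879, 1074, 1358 and 1552 against 127.6, 85.4, 70.5 and 191.6 CPM (3.49 ± 0.38, adjusted p = 0.000765). Adenylate cyclases Adcy5 (5.25) and Adcy6 (3.88) were higher and the phosphodiesterase Pde4d (−7.01) lower, 4 up and 1 down of 11 cyclic nucleotide genes. Of 8 RGS genes, Rgs5 and Rgs4 were higher. Without Acta2GFP the counts were 7 higher and 1 lower of 17 vasoactive genes, S1pr3 and Adra1d now among the higher and F2r no longer called, and 3 and 1 of 11 cyclic nucleotide genes. Leaving out each of the other strains left fewer vasoactive calls, 2 higher and 0 lower, 2 and 1, and 1 and 1, with Adra2b among the higher each time. For cyclic nucleotide genes they were 3 and 0, 2 and 0, and 3 and 1.

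In the Notch pathway 5 of 13 genes were higher, with a median of 2.57 over the list. The receptor Notch3 stood at 709, 588, 1041 and 912 CPM against 8.89 to 29.5 CPM (5.37 ± 0.43, adjusted p = 0.00032). The ligand Jag1 (3.37), the target Heyl (1.73, adjusted p = 0.00536) and the feedback regulator Nrarp (8.04) were higher too, and Notch1 (2.57) lost its call with the block (adjusted p = 0.0708). Among 24 growth factor and receptor genes Bmp5 (5.98), Igf2 (5.29, with exon bases shared with 2 other genes) and Pdgfrb were higher and Pdgfra lower. Transcription factor genes had 6 of 21 higher and 2 lower. Nr2f2 (COUP-TFII) was steady at 253.8, 247.9, 267.1 and 252.1 CPM against 5.69 to 50.99 CPM (3.29 ± 0.58, adjusted p = 0.00863). Foxs1 (2.81), Epas1, the hypoxia-inducible factor HIF-2α (2.68), and Ebf1 (1.72) were higher, and Meox1 (−4.79) lower. Tbx3, Mef2c and Hand2 lost their calls with the replicate block (adjusted p = 0.154, 0.12 and 0.0695). Without Acta2GFP 5 of 12 Notch genes were higher, and 7 of 20 transcription factor genes were higher and 3 lower. With the other strains left out in turn, 3, 3 and 4 Notch genes were higher. Transcription factor calls fell to 2 higher and 1 lower, 1 and 0, and 4 and 1, Epas1 being higher in each, and Pdgfra kept its call only in the last of the 3.

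Matrix genes lay mostly on the fibroblast side. Of 20 interstitial matrix genes 11 were lower in cluster 8 and 1, Postn, was higher, with a median of −1.87. Lum, the proteoglycan lumican, stood at 61.3, 70.6, 6.3 and 111.7 CPM against 2318, 2551, 2038 and 2069 CPM in fibroblasts (−5.02 ± 0.73, adjusted p = 0.00319). Dcn (−2.98), Col1a1 (−1.98), Col1a2 (−1.77) and Bgn (−1.35) were lower as well. Without Acta2GFP 13 were lower, Eln and Loxl1 first among those gained (−5.94 and −5.84, against −0.59 and −2.49 with it). Leaving out the other strains instead cut the matrix genes lower to 1 (Fbln2), 3 and 4, with Postn no longer called in any of the 3, and the basement membrane genes lower to 3, 2 and 3. Basement membrane genes had 7 of 20 lower and none higher, with a median of −1.31, and these 7 were Lamc3, Col4a6, Nid2, Col15a1, Col4a3, Hspg2 and Lamc1. The main collagen IV chains did not pass: Col4a1 stood at 1083, 501, 1002 and 766 CPM against 514, 368, 645 and 484 CPM (0.84 ± 0.29, adjusted p = 0.139). Lamc3, Col4a6 and Lamc1 lost their calls with the block (adjusted p = 0.0567, 0.0556 and 0.0567). Of 12 integrin genes Itga7, a laminin receptor (7.29, at 587, 438, 814 and 1234 CPM), and Itga1, a collagen receptor (4.25), were higher, and Itga5 was lower and lost its call with the block (adjusted p = 0.101).

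Metabolic genes were higher by 6 of 15, with 1 lower and a median of 1.99. Besides Higd1b, Cox4i2 and Ndufa4l2 these were the fatty acid carriers Cd36 (5.55, at 141.3, 436, 337 and 725 CPM) and Fabp4 (5.35, at 723, 762, 365 and 253.6 CPM), and Ldhb, which lost its call with the block (adjusted p = 0.0791). Lipoprotein lipase (Lpl) was lower (−2.45). Of 11 solute carrier genes Slc2a4, the glucose transporter GLUT4 (4.71), Slc12a2 (5.03) and Slc16a12 (8.20) were higher and Slc1a3 (−6.55) lower. Complement genes C3 (−6.16), C4b (−4.67) and Cfb were lower while Colec11 was higher, and Cfb lost its call with the block (adjusted p = 0.0753). Of 11 iron and copper genes Steap4 passed. Immediate early genes were all negative here too, 17 tested with a median of −1.53, and Klf4, Klf2, Fosb and Jun were lower (−5.16, −3.63, −2.63 and −1.87). Without Acta2GFP 7 of the 17 were lower, whereas by edgeR none passed without C57BL6 or without PdgfrbGFP (7 and 6 at an unadjusted p under 0.05) and 3 did without Cspg4dsRED. In the same 3 fits 5 metabolic genes, Slc2a4 of the solute carriers and Colec11 were higher each time, and C3 was lower.

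**Figure D5:**
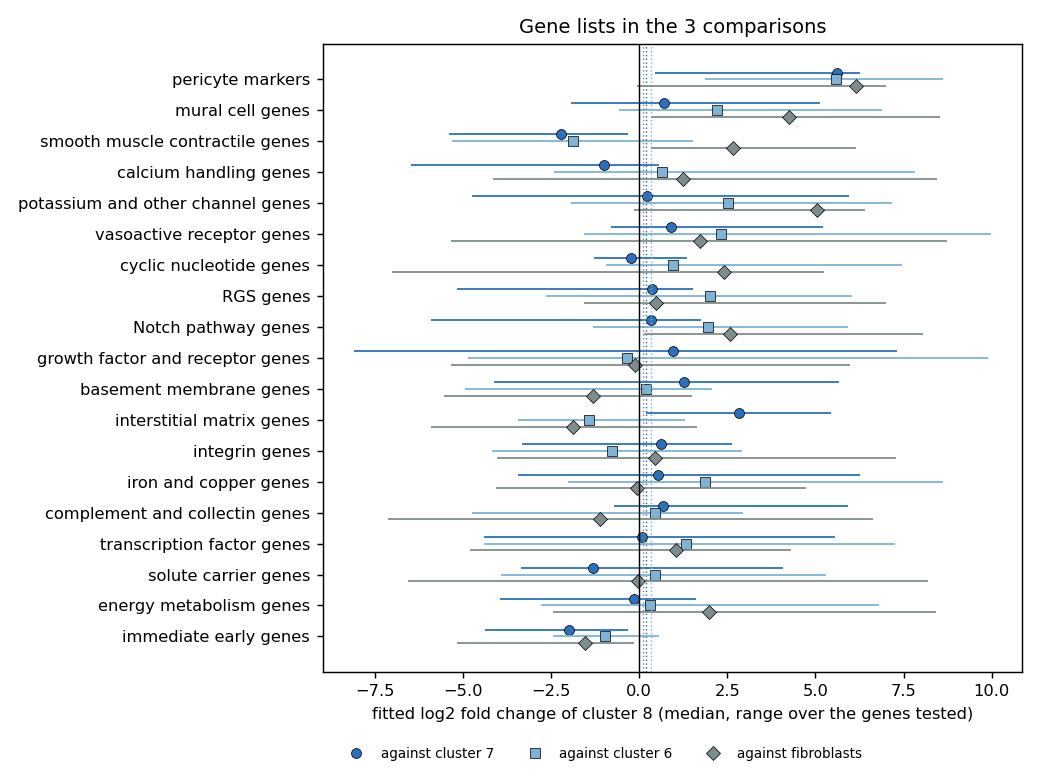
Median fitted log2 fold change of cluster 8 (points) for 19 gene lists against cluster 7, cluster 6 and fibroblasts, with lines over the range of the genes tested and dotted lines at the medians of all genes tested (0.18, 0.35 and 0.10). Contractile genes lie at −2.22 against cluster 7 and 2.66 against fibroblasts, interstitial matrix genes at 2.83 and −1.87, and immediate early genes are negative in all 3 comparisons.

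Summed over the list, contractile genes took 4147 to 11979 CPM in cluster 8, between 1185 to 2502.5 CPM in fibroblasts and 26483 to 41005 CPM in cluster 7. Interstitial matrix genes took 7042 to 16392 CPM, between 1963.5 to 2833 CPM in cluster 7 and 28282 to 30946 CPM in fibroblasts. Immediate early genes took 3406 to 7727 CPM, under the 11575 to 19401 CPM of cluster 7 and the 9598.5 to 22023 CPM of fibroblasts. Cluster 8 did not overlap with either group in any of the 3 lists, and its highest contractile and interstitial values were both those of Acta2GFP. Cluster 6 took 24772 to 33119 CPM of contractile genes, above cluster 8, while its 12642 to 29813 CPM of interstitial matrix genes and 5471 to 23500.0 CPM of immediate early genes overlapped with cluster 8. All 3 comparisons share the cluster 8 sums, so their values are set side by side and were not tested against each other.

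Genes detected per cell and the share of spike-in reads were compared within strains, in 4 tests. Cells were thinned to 50000 counts, and 2 cells with fewer counts were left out. Strain medians then averaged 2481 ± 782 genes (SD, n = 3) in cluster 8 and 2787 ± 966 in cluster 7. The cluster 8 median was the smaller in 3 of 3 strains (exact sign-flip permutation test, two-sided p = 0.25, the smallest 3 strains allow). Against fibroblasts they averaged 2424 ± 649 and 3187 ± 925 genes (n = 4), the smaller in 4 of 4 strains (exact permutation test, two-sided p = 0.13, the smallest 4 strains allow). Spike-in RNA came with the lysis buffer of each well. It took 3.07% ± 1.64 of reads in cluster 8 and 2.27% ± 0.985 in cluster 7 (n = 3, exact permutation test, two-sided p = 0.25). Against fibroblasts it took 3.07% ± 1.34 and 1.499% ± 0.497 (n = 4, exact permutation test, two-sided p = 0.13), the larger share in each strain. The adjusted p was 0.25 for all 4 tests, and neither design could reach 0.05.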

How the data were processed

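Single cells of mouse hearts were sequenced by Smart-seq2, a method without molecular identifiers and without strand information. Per the methods, the authors trimmed the reads, aligned them to GRCm38 with TopHat2 run on either Bowtie1 or Bowtie2, and counted them per gene with featureCounts. The annotation release and strand setting are not given in the sources used here. The authors removed cells with few counts, too few or too many genes, or many spike-in or mitochondrial reads, and no doublet caller was run here. The deposited values are raw read counts per gene and cell. Of 46517 genes 28932 had a count, and the 92 ERCC spike-ins (1.82% of counts) were left out of totals and tests. No 2 cells had identical columns and 0 columns were left without a sample.

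Counts were summed per strain over cluster 8, cluster 7, cluster 6 and clusters 1 to 5, where at least 3 cells existed. Cluster 8 held 196 cells, 119 of them from PdgfrbGFP, and cluster 7 held 118. The sums were compared with edgeR 4.0.16 in R 4.3.3 (TMM, filterByExpr with a minimum count of 10, quasi-likelihood F test, Benjamini-Hochberg adjusted p under 0.05), without a block. SE is the absolute log2 fold change over the square root of F. Clusters were made by the authors from these same counts, so a p-value says how steady a difference was over strains and is not independent evidence of it. The members, the 19 gene lists and the markers were chosen with earlier results of these data known.

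Named genes were the pericyte and other cell type markers, members of the lists that passed or up to 4 abundant ones that did not, and per comparison and direction the 8 largest changes that had 1 sign throughout the strains and were counted in 30% of the higher side's cells. Genes named for their abundance per length, for their level in Acta2GFP, or because a call or sign changed without Acta2GFP or with the block (Fn1, Eln, Loxl1, S1pr3, Adra1d among them) were chosen after their values were seen, as were the remaining genes of the short lists of calls. Some genes that the rule names are not reported here. Both sides of a strain came from the same sort and plate (C57BL6 fibroblasts also from other plates), which pairs the sums, and the deviations of such pairs correlated at 0.0215 to 0.152. Strain as a replicate block, DESeq2 1.42.0, limma 3.58.1 and the other alternatives are given in the closing section. Of 351 genes in the lists, markers and leading calls, 118 share exon bases with another gene in GENCODE M21. CPM values cover sums with 6666928 to 18542836 counts for cluster 8, and intervals and limits cover counting error only.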

Additional observations from a re-analysis of the deposited data

Results flagged for a closer look

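Over 39 measures with a value in each of the 4 strains of cluster 8, 3 had 1 strain whose gap to its nearest neighbour exceeded Dixon's 95% critical share of the range, and chance gives about 1 in 20. Interstitial matrix genes summed to 16392 CPM in Acta2GFP against 7042 to 7795 CPM in the others. Red blood cell markers summed to 174.7 CPM in Cspg4dsRED against 0.597 to 5.56 CPM. Schwann cell markers summed to 5.70 CPM in Cspg4dsRED against 0 to 0.542 CPM.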

How the results depend on the processing

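Of the called genes that are markers, list members or among the largest changes, and the other pericyte markers, values changed sign for Rgs5 and Cp, which had no call, and for no other gene under the alternatives that gave it a value (Ednrb, P2ry14, Slc16a12 and Tcf15 against fibroblasts had none with thinned cells, nor Ednrb without Cspg4dsRED and Slc16a12 without C57BL6 or PdgfrbGFP): Rgs5 against cluster 7 was −0.14 with DESeq2 size factors in edgeR and with DESeq2, and Cp against fibroblasts was 0.0234 with both of these and 0.0553 without Cspg4dsRED, the top of a range from −0.22 over the strains left out. Other genes without a call changed sign too, among them Eln and Loxl1 against cluster 7 without Acta2GFP (−2.83 and −1.58) and Synpo2 with the block (0.27). Against cluster 7 the share of genes tested that passed went from 0.194% (10 higher, 13 lower) to 0.379% with DESeq2 size factors (12 higher, 33 lower), 3.20% with DESeq2, 0.855% without a filter, 0.691% with strain as a replicate block, 0.483% with all clusters in 1 fit, 0.432% with sums of 1 cell or more, and 0 to 0.987% leaving out a strain. Against cluster 6 it went from 0.157% to 0.333% (21 higher, 15 lower), 3.09%, 0.725%, 1.43% and 1.23% in the same order up to the fit of all clusters, 0.508% with cells thinned to equal depth, and 0.0103% to 1.63% leaving out a strain. Against fibroblasts it went from 7.43% to 13.8% with DESeq2, 2.41% without a filter, 3.94% with the replicate block, 1.63% with all clusters in 1 fit, and 1.42% to 8.47% leaving out a strain. The other settings stayed within 1.5 times. The cause of these moves was not tested, beyond that leaving out a strain leaves fewer samples. DESeq2 size factors moved the median of all genes from 0.18, 0.35 and 0.10 to 0.04, 0.15 and 0.20, and the block moved it to 0.34, 0.90 and −0.36. Genes detected differed by −97.3 from cluster 7 and −769 from fibroblasts in unthinned cells (exact permutation p = 1 and 0.25) and by −293 and −704 at 100000 counts. Cells with fewer than 100000 counts were left out at that depth. The few cells of cluster 6 in C57BL6 and Acta2GFP and of cluster 7 in PdgfrbGFP limit those sums, and depth limits genes near 0.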
